A study of Drosophila melanogaster with 48 samples.

Results

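The genes of the mitochondrial respiratory chain and the ATP synthase were followed in the heads of male Drosophila melanogaster under oxidative stress. Members were taken by FlyBase symbol. Symbols that begin with ND- were taken for complex I, SdhA to SdhD for complex II, UQCR- symbols with RFeSP, ox and Cyt-c1 for complex III, COX followed by a digit for complex IV, and ATPsyn symbols with blw for complex V. This gave 88 members of the 13957 genes in the count table: 40 in complex I, 4 in complex II, 12 in complex III, 16 in complex IV and 16 in complex V. Of these, 21 carry an L-type name, that is, the name of another subunit followed by L (6 in complex I, 3 in complex III, 8 in complex IV and 4 in complex V). The other 67 are called standard members here.

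Heads were compared after feeding on menadione sodium bisulfite (MSB, a compound that generates superoxide) at 75 mM or on standard food (0 mM). The 12 lines were M12D3 and M12N3, M9D3 and M9N1 from Munich, C2D3 and C2N1 from Nicosia, KL01 and KL02 from Kuala Lumpur, and ZI197, ZI254, ZI273 and ZI418 from Siavonga. M12D3, M9D3, C2D3 and KL01 carry a deletion in the 3′ UTR of the metallothionein gene MtnA, and the other 8 lines do not. The Munich and Nicosia pairs are nearly isogenic, but the paper reports more remaining sequence divergence in the M9 pair than in M12 or C2. A difference between the M9 lines is therefore not tied to the deletion alone. The Malaysian pair consists of separate isofemale lines, so a difference between the Malaysian lines is not tied to the deletion. Flies were 5 to 7 days old and each library came from 60 pooled heads. Exposure lasted 24 h outside Zambia and 18 to 20 h in the lines from Siavonga, so geographic range and exposure time cannot be told apart. Each line had 2 control libraries and 2 stress libraries, except that ZI197 and ZI418 had 1 stress library each and ZI254 and ZI273 had 3 each. These numbers follow the sample labels and depart from the even number per line and treatment that the study's methods describe.

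Complexes I to IV pass electrons from NADH and succinate to oxygen, and complexes I, III and IV pump protons across the inner mitochondrial membrane. Complex V, the ATP synthase, uses the resulting gradient to make ATP. Complex I combines core subunits, which hold the redox and quinone sites, with many small accessory subunits. Drosophila carries duplicates of several nuclear subunit genes, and many of the duplicates are known for expression in the testis. Part of complexes I, III, IV and V is encoded by the mitochondrial genome and was not among the members.

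The libraries used held 27223075 to 63358011 counts in 24 controls and 29414147 to 53939743 in 23 stress samples. One M9N1 stress library stood far from all others in the principal component analysis and was left out, which leaves 47 libraries and a lone M9N1 stress sample. Levels are CPM, counts scaled to library size with TMM factors. Between stress and control the summed CPM of hemocyte markers was 12.6 to 139 against 14.3 to 303, that of fat body markers 1425 to 6840 against 4376 to 18888, and that of 8 neuron markers 3118 to 4933 against 3447 to 4951. Of these and other lists, 4 of 4 hemocyte, 5 of 7 fat body and 4 of 6 glia markers fell, 2 fat body markers rose, and 0 of the 8 neuron markers passed in edgeR (1 with an unadjusted p below 0.05) or in DESeq2. Hml, which fell, stands in both the hemocyte and the fat body list and is counted in each. Of 13 muscle markers 5 fell and 1 rose, and of 11 photoreceptor markers 1 fell and 3 rose. What this shift had to do with the members was not tested. In heads, fewer cells of a type and less RNA per cell cannot be told apart.

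Nearly every standard member was lower after MSB, by a small amount. In the test over all 12 lines (edgeR's quasi-likelihood test, Benjamini-Hochberg adjusted p below 0.05 over 10514 genes), 56 of the 73 members tested fell, where 26.2% of all genes tested fell. One member rose, where 27.3% of all genes did. The median log2 fold change of the 66 standard members tested was -0.23, against 0.01 for all genes tested. Of these 66 members, 55 fell, 0 rose and 11 did not pass, and the range was from -0.54 to 0.09. DESeq2 called up ND-B8, the standard member that is below the filter here and so not among the 66.

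**Figure D1:**
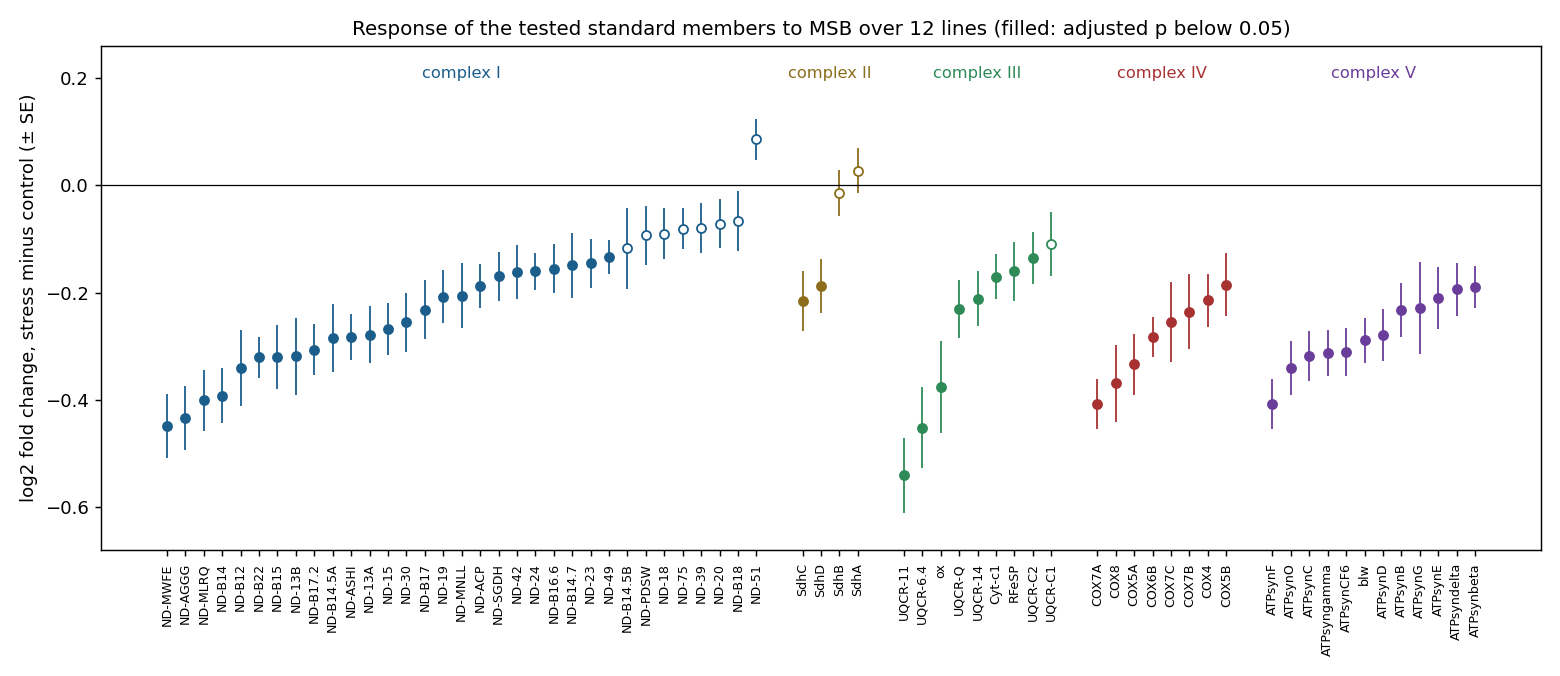
Log2 fold change (stress minus control, ± SE from the edgeR fit) of the 66 standard members tested, grouped by complex, over 24 control and 23 stress libraries. Filled points passed the adjusted p threshold. All 8 members of complex IV and all 12 of complex V are filled and below 0, whereas SdhA, SdhB and ND-51 are open and close to 0 or above it.

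In complex I, 25 of 33 standard members tested fell and the others did not pass, with a median of -0.21. The fall was in both kinds of subunit. Of the accessory subunits 21 of 26 fell (median -0.25), and of the core subunits 4 of 7 (median -0.13).

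Among the accessory subunits, ND-MWFE had 37.9, 72.6 and 94.8 CPM (lowest, median and highest) in controls and 41.8, 54.0 and 63.4 CPM under stress. The log2 fold change of ND-MWFE, with its SE, was -0.45 ± 0.06 (adjusted p = 1.25e-08). ND-AGGG went from 166, 212 and 295 CPM to 130, 150 and 219 CPM. For ND-AGGG the log2 fold change was -0.43 ± 0.06 (adjusted p = 2.58e-08). The groups overlapped for both genes, although the stress median of ND-AGGG lay below every control. ND-MLRQ (-0.40 ± 0.06, adjusted p = 6.28e-08) and ND-B14 (-0.39 ± 0.05, adjusted p = 8.12e-09), also accessory subunits, were of similar size. At the other end, ND-B18 had a log2 fold change of -0.07 ± 0.06 (adjusted p = 0.332).

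The core subunits stood nearer to 0. ND-51, which binds NADH through its flavin, had 322, 439 and 493 CPM in controls and 396, 455 and 536 CPM under stress. Its log2 fold change was 0.09 ± 0.04 and did not pass (adjusted p = 0.0536). It passed, with the same sign, with line as a block (adjusted p = 0.00816), so its call rests on the model. The iron-sulfur subunits ND-75 (-0.08 ± 0.04, adjusted p = 0.0738) and ND-20 (-0.07 ± 0.05, adjusted p = 0.192) did not pass either. ND-24 (-0.16 ± 0.03, adjusted p = 9.1e-05) and ND-49 (-0.13 ± 0.03, adjusted p = 0.000511) fell.

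Complex II, succinate dehydrogenase, was divided by role. Its membrane anchors fell: SdhC had a log2 fold change of -0.21 ± 0.06 (adjusted p = 0.0011) and SdhD of -0.19 ± 0.05 (adjusted p = 0.00175). The catalytic subunits did not pass. The flavoprotein SdhA had 334, 392 and 473 CPM in controls and 357, 410 and 468 CPM under stress, with almost complete overlap and a log2 fold change of 0.03 ± 0.04 (adjusted p = 0.595). The iron-sulfur subunit SdhB gave -0.01 ± 0.04 (adjusted p = 0.802).

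In complex III, 8 of the 9 standard members fell (median -0.21). The 5 small subunits led, with a median of -0.37. UQCR-11 had 55.6, 95.2 and 155 CPM in controls and 50.5, 68.2 and 92.1 CPM under stress. Its log2 fold change of -0.54 ± 0.07 was the lowest of all members tested (adjusted p = 4.87e-09). UQCR-6.4 (-0.45 ± 0.08, adjusted p = 1.5e-06) and ox (-0.37 ± 0.09, adjusted p = 0.000234) followed. The redox subunits Cyt-c1 and RFeSP, the Rieske protein, fell by less (-0.17 ± 0.04 and -0.16 ± 0.05). UQCR-C1, 1 of the large core proteins, did not pass (-0.11 ± 0.06, adjusted p = 0.124).

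All 8 standard members of complex IV, cytochrome c oxidase, fell (median -0.27). The lowest was COX7A, from 237, 268 and 333 CPM in controls to 163, 210 and 245 CPM under stress. Its log2 fold change was -0.41 ± 0.05 (adjusted p = 2.48e-10), and the groups barely overlapped. COX8 (-0.37 ± 0.07, adjusted p = 2.06e-05) came next, and COX5B was the nearest to 0 (-0.18 ± 0.06, adjusted p = 0.0066). The nuclear subunits levy and cype, which the naming rule leaves out, also fell (-0.20 ± 0.05, adjusted p = 0.00187, and -0.37 ± 0.08, adjusted p = 0.000229).

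All 12 standard members of complex V fell (median -0.28), in the catalytic head, the stalks, the membrane part and the rotor ring alike. ATPsynF, a membrane subunit, went from 330, 451 and 525 CPM to 260, 345 and 385 CPM. Its log2 fold change was -0.41 ± 0.05 (adjusted p = 1.96e-10). ATPsynO of the stalk gave -0.34 ± 0.05 (adjusted p = 1.24e-07). The catalytic subunit ATPsynbeta was the member nearest to 0, at -0.19 ± 0.04 (adjusted p = 6.12e-05), with ATPsyndelta at -0.19 ± 0.05 (adjusted p = 0.000858). The epsilon subunit sun, outside the rule, fell as well (-0.26 ± 0.08, adjusted p = 0.00479).

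The 13 subunits encoded in the mitochondrial genome did not pass over all lines, and their difference from the nuclear members was not tested. Of these genes, edgeR called 0 in either direction (0 with an unadjusted p below 0.05, and 0 by DESeq2), with a median of -0.01 and a range from -0.07 to 0.20. mt:CoI, a catalytic subunit of complex IV, gave 0.03 ± 0.07 (adjusted p = 0.72). The SE of some was wide, for example 0.28 for mt:ND1, so a fall of the size seen in complex IV was not detectable for every gene. In single lines their median went from -0.35 in KL02, -0.24 in M9D3 and -0.20 in ZI197 to 0.87 in ZI418. The values of ZI197 and ZI418 rest on 1 stress library each. Some mitochondrial genes were called in single lines, in either direction. There were 2 in M12D3 (34.4% of all genes), 2 in M9D3 (33.0%), 1 in C2D3 (14.7%) and 1 in KL01 (24.9%). In M12N3, C2N1, KL02, ZI254 and ZI273 there were 0. Counts for the lines with 1 stress library are not given. For the gene lists that follow, the shares over all genes were 26.2% falling and 27.3% rising. Of 15 enzymes of the citrate cycle and pyruvate dehydrogenase, 9 fell and 0 rose (median -0.16). Of 10 assembly factors 5 fell and 1 rose, of 9 genes of ubiquinone synthesis 2 fell and 2 rose, and of 7 regulators of nuclear respiratory genes 3 fell and 1 rose. Of 8 electron carriers and donors tested, 3 fell and 2 rose. Etf-QO, which feeds electrons from fatty acid oxidation to ubiquinone, rose by 1.06 ± 0.10 on the log2 scale (adjusted p = 9.06e-13). Gpo2, a mitochondrial glycerol-3-phosphate dehydrogenase, rose by 4.35 ± 0.27 (adjusted p = 4.25e-18) from a low level. It had 0.118, 0.574 and 1.37 CPM in controls and 1.64, 10.7 and 30.6 CPM under stress. Gpo1, at medians of 172 and 185 CPM, did not pass (0.13 ± 0.06, adjusted p = 0.0673).

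Per length, complexes IV and V were the most abundant in controls. The median over standard members was 479 CPM per kilobase of exon in complex IV, 403 in complex V, 292 in complex III, 171 in complex II and 159 in complex I, without ND-B8. ATPsynC, the rotor ring subunit, was the highest member (913 ± 98.2 CPM per kilobase, SD, n = 24 in controls, and 733 ± 79.5, n = 23, under stress). Over control libraries, the SD of the complex median was 61.8 in complex IV and 52.8 in complex V, and the difference between them was not tested.

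Members of short transcripts fell more. The 44 standard members under 1000 bases had a median log2 fold change of -0.26, and 40 of them fell. The 22 of 1000 bases or more had a median of -0.16, and 15 fell. For other genes tested the median was -0.03 over 1599 genes under 1000 bases and 0.01 over 8842 longer ones, with 28.3% and 25.4% falling. The shortest genes, up to 500 bases, differed from this: the median was -0.14 over 213 other genes, -0.71 over the 26 of them expressed in the members' range, and -0.32 over 3 members. Core subunits of complex I had a median length of 1282 bases and accessory subunits of 754, so role and length go together there. Among those of 1000 bases or more, the median was -0.08 for 5 core and -0.16 for 4 accessory subunits. Role and length also went together in complex II, where SdhA and SdhB had 2750 and 1219 bases and SdhC and SdhD 906 and 894. In complex III the large core proteins UQCR-C1 and UQCR-C2 had 1632 and 1686 bases, and the small subunits 331 (ox) to 1083 (UQCR-11). The 5 long members of complex V (1395 to 3817 bases) all fell, with a median of -0.29.

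**Figure D2:**
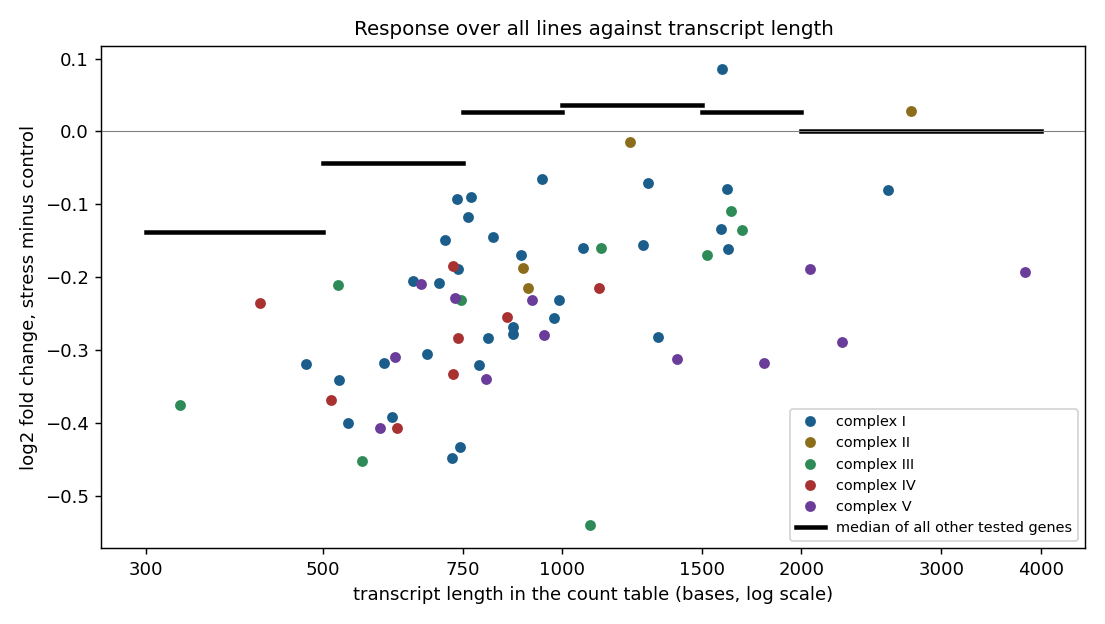
Log2 fold change over all lines against transcript length (log scale) for the 66 standard members tested, coloured by complex. Black bars are medians of all other genes tested in the same length range, for example -0.04 between 500 and 750 bases, where the members had a median of -0.31.

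The response was also taken line by line, as a description of each line. The median over the standard members lay below that of all genes in 12 of 12 lines, by 0.03 (ZI418) to 0.48 (M9D3) on the log2 scale. In 9 of 12 lines every stress library had a lower member median than every control library of that line. The exceptions were M12D3, M9N1 and KL01. Some gaps were small: in M12N3 the highest stress library was at -0.1330 and the lowest control at -0.1324. In ZI418 these were -0.182 and -0.167, and ZI197 and ZI418 had 1 stress library each. The same count was not made for other genes.

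**Figure D3:**
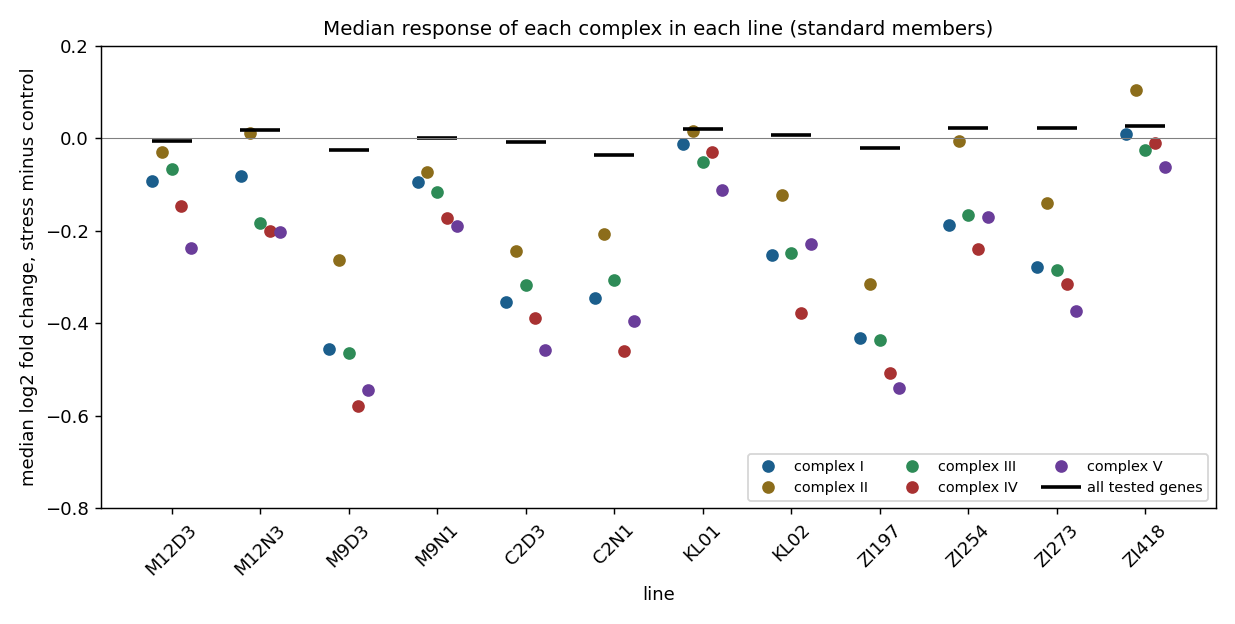
Median log2 fold change (stress minus control) of the standard members of each complex in each of the 12 lines, with the median of all genes tested as a black bar. Complex II is the highest of the 5 in every line and complex IV or V the lowest, and M9D3 and ZI197 lie lowest.

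The order of the complexes recurred: complex II had the highest median in 12 of 12 lines, and complex IV or V the lowest in 12 of 12. The core subunits of complex I had a higher median than the accessory ones in 10 of 12 lines. These counts describe the same libraries as the test over all lines.

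M9D3 had the most members called. There, 48 of 80 members tested fell, where 16.5% of all genes did, and the median of the standard members was -0.50. In ZI197, which had 1 stress library, 32 of 79 fell against 5.21% of all genes (median -0.44). In ZI273 it was 31 of 79 against 13.0% (median -0.29), and in ZI254 13 of 79 against 8.38% (median -0.18). Leaving out 1 library moved these counts widely: to 7 in M9D3 without its stress replicate 1, to 12 in ZI197 without its control replicate 1, to 5 in ZI273 without its control replicate 2, and to 3 in ZI254 without its control replicate 2.

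Elsewhere few members passed. In C2D3 7 of 78 fell (5.93% of all genes) and in C2N1 3 of 78 (3.92%), although their medians were -0.36 and -0.35. Without C2N1 control replicate 2 the count in C2N1 was 29, and without C2D3 control replicate 1 that in C2D3 was 0. In M12D3 4 of 79 fell (18.1% of all genes) and in M12N3 5 of 79 (8.52%), with medians of -0.10 and -0.12. In KL02 3 of 76 fell (5.62%, median -0.26). In KL01 edgeR called 0 of 76 down (11.3% of all genes, 3 members by DESeq2, 9 standard members with an unadjusted p below 0.05 in either direction), with a median of -0.02. In M9N1 0 of 80 fell (11.6%, 2 members by DESeq2, 8 standard members with an unadjusted p below 0.05, median -0.14), and in ZI418 1 of 79 (5.74%, median 0.00). M9N1 and ZI418 had 1 stress library each, whose spread was taken from the other groups of the fit.

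Some members rose in single lines. In KL01, where 13.6% of all genes rose, 5 members did, among them the accessory subunits ND-B14.5B (0.64) and ND-B18 (0.54) on the log2 scale. The other 3 in KL01 were COX7AL, COX7CL and ATPsynbetaL. In M12D3 3 members rose (16.3% of all genes), in M9D3 2 (16.5%), in ZI273 2 (12.7%), and in C2D3 (8.8%), M9N1 (15.8%) and ZI254 (8.57%) 1 each. Apart from ND-B14.5B and ND-B18, the members called up in single lines were L-type paralogs or ND-B8, which have few counts and could pass the filter through the stress libraries in which they were high, so their calls are a description.

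Without KL01 control replicate 2, 7 members fell in KL01. In that library the members' median was -0.42 relative to the mean of the controls, against -0.04 in the other KL01 control. The median of other genes under 1000 bases was -0.22 there. Between replicate libraries of 1 line and treatment the members' median differed by 0.04 to 0.38 in controls and by 0.00 to 0.26 under stress, so the spread between replicates was as large as the response of several lines.

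**Figure D4:**
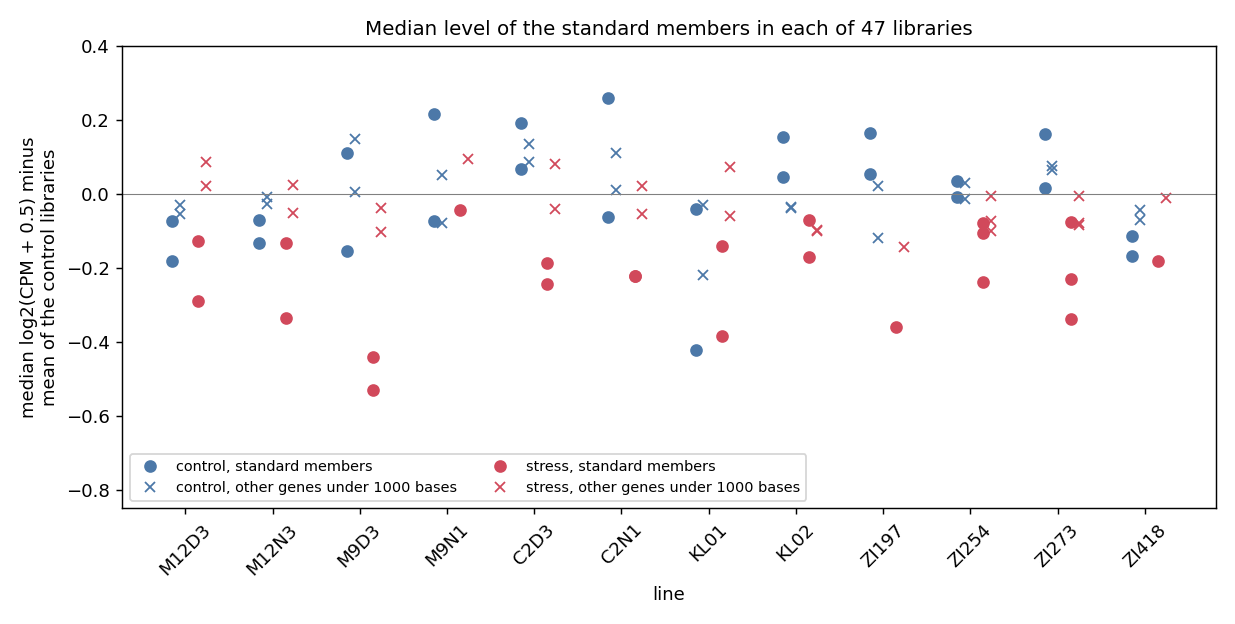
Median of log2(CPM + 0.5) of the standard members in each of 47 libraries, minus the mean of the control libraries (circles), and the same for other genes under 1000 bases (crosses). The lowest control is KL01 replicate 2 at -0.42 and the lowest stress libraries are those of M9D3 at -0.44 and -0.53.

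The members called down in the most lines were UQCR-11 (8 of 12 lines), COX7A (7), and ND-AGGG, ND-B14 and ATPsynF (6 each). UQCR-11 had log2 fold changes from -0.92 in M9D3 to 0.07 in KL01, and was lower in 11 lines. COX7A was lower in 12, from -0.74 in M9D3 to -0.16 in ZI418. Of the 67 standard members, 20 were lower in all 12 lines and 51 were called down in at least 1.

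Whether the response differed between lines was tested in 1 fit of all lines. edgeR called 0 of 83 members (9 with an unadjusted p below 0.05), where 9.66% of all genes were called. The smallest adjusted p was 0.0671, for ND-B14.5B, whose log2 fold change went from -0.62 in C2N1 to 0.64 in KL01. The Zambian and cosmopolitan responses differed for 0 of 79 members (1 with an unadjusted p below 0.05), where 0.561% of genes were called, and the median difference of the standard members was -0.02. The response did not pass as different between deletion and non-deletion lines for any of 79 members (edgeR called 0, 3 with an unadjusted p below 0.05), where 0.137% of genes were called. The smallest adjusted p was 0.282, for blw, the alpha subunit of complex V.

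Within pairs, the deletion line was compared with its partner. In controls, edgeR called 0 members in the M12 pair (0.1% of all genes, 3 standard members with an unadjusted p below 0.05), 0 in the M9 pair (2.28%, 1 standard member) and 0 in the C2 pair (0.232%, 0 standard members). Under stress it called 0 in M12 (8.0% of genes, 0 standard members with an unadjusted p below 0.05), 0 in M9 (1.97%, 50 standard members) and 0 in C2 (0.204%, 0 standard members). In the M9 pair under stress the median log2 difference of the standard members was -0.46 (M9D3 minus M9N1), which rests on 1 M9N1 library. With all lines in 1 fit, 8 members were called in that comparison.

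In the Malaysian pair, 7 members were lower in KL01 controls, where 10.9% of all genes differed: ND-B14.5B, ND-SGDH, UQCR-11, UQCR-14, COX5B, ATPsynE and COX7AL. COX7AL had 1 and 0 counts in the KL01 controls and 18 and 17 in those of KL02. COX7AL passed the filter only through the KL02 libraries, so its call is no test of a difference. UQCR-11 had 76.5 and 55.6 CPM in the KL01 controls and 111 and 95.1 CPM in those of KL02, a log2 difference of -0.67 ± 0.16 (adjusted p = 0.0313). Without KL01 control replicate 2 the count was 2, and without KL01 control replicate 1 it was 37. Under stress 2 members differed, where 21.7% of genes did: ATPsynE was lower in KL01 (-0.46 ± 0.12, adjusted p = 0.0278) and ATPsynbetaL higher. ATPsynbetaL had 21 and 25 counts in KL01 and 4 and 4 in KL02, and it passed the filter only through the KL01 stress libraries, so its call is no test of a difference. Neither was called when any 1 of the 4 stress libraries was left out, where the count was 0.

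Over the controls of all 12 lines, 38 of 83 members differed among lines, where 57.9% of all genes did, so the members' share was below the background. Of these, 32 were standard members, whose highest line mean was 1.20 to 1.97 times the lowest. UQCR-11 had the largest such ratio, from 66.0 CPM in KL01 to 130 CPM in M9N1 (adjusted p = 0.000561).

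The L-type paralogs were near the limit of detection in heads, and 7 of 21 passed the filter on low counts. COX7AL2 was the highest, at 3.58, 11.9 and 27.3 CPM in controls (lowest, median and highest) and 6.57, 9.01 and 14.3 CPM under stress, and it fell (-0.45 ± 0.14, adjusted p = 0.00563). The log2 ratio of its count to that of COX7A, its base gene, had a median of -4.47. COX6AL2 followed at a median of 1.11 CPM in controls and 1.22 CPM under stress (0.12 ± 0.12, adjusted p = 0.38). The remaining 19 had control medians of at most 0.414 CPM. ND-20L, ND-24L, ND-B14.5AL and UQCR-14L had a median of 0 in both groups, with 10, 21, 5 and 9 counts in all 47 libraries together.

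One L-type paralog rose over all lines. COX6AL, a form of the subunit encoded by levy, had 0, 0.163 and 0.523 CPM in controls and 0, 0.301 and 1.09 CPM under stress (log2 fold change 0.94 ± 0.34, adjusted p = 0.0174). The groups overlapped, and it was higher in 7 of 12 lines. COX4L (0.50 ± 0.24, adjusted p = 0.077), COX5BL (0.47 ± 0.34, adjusted p = 0.242), UQCR-11L (0.12 ± 0.16, adjusted p = 0.561) and ATPsynepsilonL (-0.39 ± 0.25, adjusted p = 0.18) did not pass.

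Several members below the filter were higher under stress. ATPsynbetaL, a paralog of the catalytic subunit, had 0, 0.025 and 0.132 CPM in controls and 0.0567, 0.456 and 1.04 CPM under stress, with 44 counts in 24 controls and 389 in 23 stress libraries. ND-B8, an accessory subunit of complex I by name, had 0, 0.115 and 0.294 CPM in controls and 0.106, 0.457 and 1.39 CPM under stress. The ranges of both genes overlapped between the groups. Without the filter both rose over all lines (ATPsynbetaL 3.12, adjusted p = 4.31e-09, and ND-B8 2.18, adjusted p = 1.71e-07), as did COX7CL (1.16, adjusted p = 0.000566) and ND-51L2 (1.39, adjusted p = 0.00573). Summed over 18 testis markers, the libraries had 4.41 to 9.56 CPM in controls and 5.30 to 12.2 CPM under stress. Of 5 testis markers tested 2 rose, where 27.3% of all genes did, and DESeq2 called 5 of the 18 up. The median was higher under stress for bam, dj (0.101 against 0.0248 CPM), djl (0.0676 against 0) and aly (0.0177 against 0). S-Lap1, betaTub85D, vas, Mst87F and loopin-1 also had a higher median under stress. It was lower for Mst36Fa (0.913 against 1.04 CPM), CycB3 (0.977 against 1.08) and can (0.211 against 0.215). ProtA, ProtB, Mst84Da, Mst84Db, Mst98Ca and Mst98Cb had medians of 0 in both groups. The part of such RNA in these values was not tested.

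**Figure D5:**
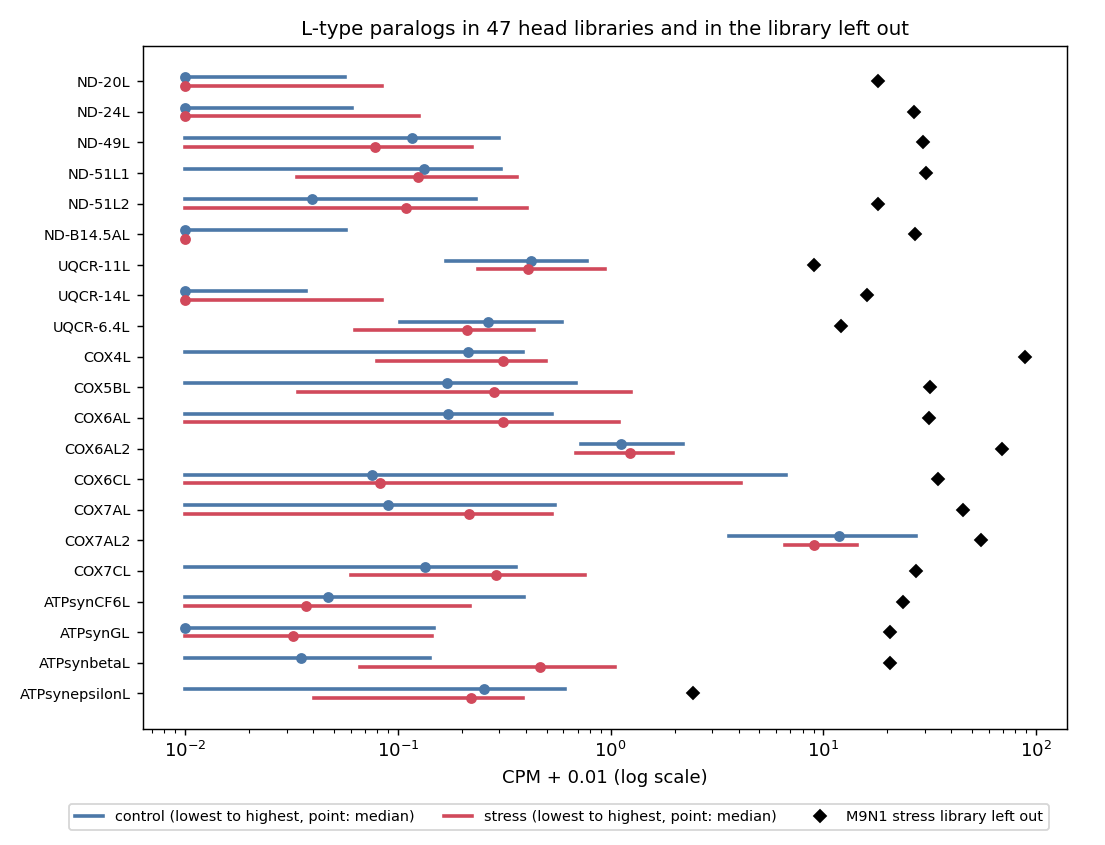
CPM + 0.01 (log scale) of the 21 L-type paralogs. Lines span the lowest to the highest of 24 control or 23 stress libraries, points are medians, and diamonds are the M9N1 stress library left out, which is the highest for all 21.

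COX6CL, a form of the subunit encoded by cype, was tied to the Nicosia lines. In the 8 libraries of C2D3 and C2N1 it had 3.24 to 6.66 CPM (median 3.95, 111 to 317 counts), and in the other 39 at most 0.227 CPM (9 counts), with 10 of them at 0. The groups did not overlap. COX6CL had the smallest adjusted p of all members among lines in controls (2.14e-10). It passed the filter on low counts only through the Nicosia libraries, so its call is a description and no test of a difference. ATPsynCF6L was also called (adjusted p = 0.000577), with 0.381 and 0.362 CPM in the M12N3 controls and 0 in those of KL01. It passed the filter only through the M12N3 controls, so its call is likewise a description. COX7AL was at 0.475 and 0.537 CPM in the KL02 controls and at 0.0249 and 0 CPM in those of KL01 (adjusted p = 0.000873). These values rest on at most 18 counts a library.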

How the data were processed

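RNA-seq counts per gene were used as the authors deposited them: reads mapped with NextGenMap to the FlyBase transcriptome, and no normalization. The deposited length equals that of the longest annotated transcript for all 88 members. The counting program, strand setting and treatment of shared reads are not given in the sources used here. Exons of 38 members overlap another gene, and paralogs can share reads, so their counts are uncertain. Of 32 tested standard members without overlap 26 fell, of 34 with overlap 29. All 48 value columns were mapped, leaving 0.

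The members and lists were chosen with earlier results of these data known. The M9N1 stress library farthest from the median of the stress libraries on the first principal components was left out. Counts were tested with edgeR 4.0.16 (R 4.3.3) after TMM scaling and filterByExpr, as two-sided tests, p-values being adjusted by Benjamini-Hochberg across the genes tested, threshold 0.05. The model over all lines had treatment alone, lines and pairs were fitted per background, and interactions with line or group terms. DESeq2 1.42.0 was an alternative. Nothing in the labels says that replicates came from separate cultures, so p-values measure the spread between these libraries. On simulated data for the test over all lines (10381 genes, 200 of them with a true log2 change of 1) 100% of changed genes were recovered, and for the response of 1 line of a pair (10451 genes) 42%. The simulation set the same spread for every gene and no differences between lines. Smaller changes were not simulated. Named are, per complex, the 3 lowest and 2 highest members, those called up, all L-type paralogs with base genes, the 3 smallest adjusted p per line or group test, and the 5 called in most lines. Other named genes (ND-B14.5B, blw, ND-75, Cyt-c1, RFeSP, ND-SGDH, ATPsynE and ND-B8) were chosen after their values were seen. No sequence is shown, and promoter motifs were not analysed here.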

Additional observations from a re-analysis of the deposited data

Results flagged for a closer look

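The M9N1 stress library left out of every comparison held signals that the other libraries lacked. Its L-type paralogs other than COX7AL2 summed to 582 CPM, where the highest of the 47 other libraries had 10.9 CPM. All 21 L-type paralogs were highest there, by 2.01 (COX7AL2) to 571 times (ND-B14.5AL) the highest other library. The 18 testis markers summed to 6026 CPM there, against 4.41 to 12.2 CPM in the others. ND-B8, a standard member by name, had 80.0 CPM there and at most 1.39 CPM elsewhere. The other 66 standard members had a median of 1.38 times their stress median in that library (0.783 to 2.17 times). How this library came to differ was not tested.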

How the results depend on the processing

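Over all lines, the count of members that fell was 56 and lay between 55 and 58 with any 1 library left out (complex I 24 to 27, the other complexes unchanged at 2, 8, 9 and 12), and the median of the standard members between -0.25 and -0.21. With only the Zambian lines complex III had 2 instead of 8. The count that rose, 1, was 5 with DESeq2 and without the filter, 7 with all 48 libraries, 6 with the other M9N1 stress library left out, 4 with line as a block, 2 without the Zambian lines, 0 with only those or at a threshold of 0.01, and 1 to 3 with 1 library left out.

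Counts per line depended on the fit. With all lines in 1 fit, 32 fell in C2D3, 25 in C2N1, 8 in KL01, 12 in KL02, 1 in M12N3, 4 in M9N1 and 0 in ZI418. With DESeq2 it was 17, 14, 3, 10, 8, 2 and 2. M9D3 had 4 with all 48 libraries. With 1 library left out the ranges were 0 to 30 in C2D3, 0 to 29 in C2N1, 0 to 7 in KL01, 0 to 11 in KL02, 0 to 6 in M12D3, 0 to 7 in M12N3, 7 to 54 in M9D3, 0 to 7 in M9N1, 12 to 45 in ZI197, 3 to 17 in ZI254, 5 to 45 in ZI273 and 0 to 2 in ZI418. In pair comparisons the 1 fit called 8 in M9 under stress, 20 in KL controls and 6 in KL under stress. Leaving out 1 library gave 0 to 1 in M12 under stress, 0 to 1 in M9 controls, 0 to 2 in M9 under stress, 2 to 37 in KL controls and 0 to 7 in KL under stress. With all 48 libraries, 25 members differed among lines in controls and 2 in the response.

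Replicate numbers did not pair the samples: same-numbered control and stress libraries of a line had correlated deviations of -0.137 to 0.256. With the number as a replicate block, 55 members fell over all lines (complex I 24) and 1 rose. Per line the block gave 3 in C2D3, 6 in KL02, 2 in M12D3, 2 in M12N3, 2 in ZI197, 3 in ZI254, 2 in ZI273 and 0 in ZI418. The cause of these shifts was not tested. Of the other checks of named genes and paralog ratios, 2075 kept their call, 31 gained one, 16 lost one and 5 ratios moved with the prior count. The simulated response of 1 line recovered 42% of genes changed by 1 on the log2 scale. The same spread was set for every gene, so this share is no estimate for the members. Changes of the size seen here are smaller and were not simulated, which limits counts per line.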

Other observations

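The position of the members in the genome differed between the kinds of gene. Of the 67 standard members 12 lie on the X chromosome, and of the 21 L-type paralogs none was found there: 4 lie on 2L, 6 on 2R, 6 on 3L and 5 on 3R. These are counts of the annotation and were not tested.

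Paralogs under other names were also low in heads. SdhBL had median levels of 0.334 CPM in controls and 0.583 CPM under stress (log2 fold change 0.75 ± 0.29, adjusted p = 0.0263 in edgeR's test), and Cyt-c1L 0.273 and 0.371 CPM (0.59 ± 0.21, adjusted p = 0.0161). In the M9N1 stress library left out, SdhBL had 130 CPM, Cyt-c1L 30.5 CPM and SdhAL, which was at most 4 counts elsewhere, 48.9 CPM.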
